A study of Caenorhabditis elegans with 19 samples.

Results

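pcp-3 (WBGene00003958), T05F1.8 (WBGene00011493), F49F1.9 (WBGene00018649), F49F1.10 (WBGene00018650) and F49F1.17 (WBGene00235367) are 5 of the 21975 genes measured, chosen because earlier results of these data had shown pcp-3, T05F1.8 and F49F1.9 nearly lost at the L3 larval stage in both mutants studied, and because F49F1.10 and F49F1.17 lie beside F49F1.9. The choice rested on the L3 values of each mutant against wild type, so those values are given as a description, with no test. The description "nearly lost" held for 3 of the 5: pcp-3, T05F1.8 and F49F1.9 stood at 0.769% to 4.87% of the wild-type mean, while F49F1.10 and F49F1.17 stood at 15.3% to 37.2%.

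RNA was measured in whole populations of Caenorhabditis elegans by sequencing poly(A) RNA, and the authors deposited FPKM values (fragments per kilobase of transcript, scaled to library size). The L3 larvae, fed for 24 h, comprised 4 samples per genotype: wild type (N2 Bristol), strain WM458, which carries xol-1(ne4472), and strain EKM198, which carries xol-1(ne4472) together with sex-1(gk829). For L1 larvae fed for 3 h the labels give 4 samples of xol-1 sex-1, called the double mutant from here on, and in early embryos taken from bleached young adults there were 3. Both mutants thus share the xol-1 allele, and each genotype was 1 strain, so the named alleles and any other difference between the strains cannot be told apart. In whole animals, fewer cells of a type and less RNA per cell cannot be told apart either.

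xol-1 is the switch gene of worm sex determination, and its activity in the embryo sets male fate. sex-1 encodes a nuclear receptor that counts among the X-signal elements, which hold xol-1 down in animals with a pair of X chromosomes. pcp-3 belongs to the prolyl carboxypeptidase family, serine proteases that remove the residue following a proline. The annotation used here gives T05F1.8 and the F49F1 genes sequence names and no function.

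The column sums of FPKM ran from 1490755 to 1717684 at L3, from 1175019 to 1281915 at L1 and from 1319860 to 1390153 in embryos. Library sizes were not used as such, and the steps between the lowest values gave 26.9 to 46.4 fragments per FPKM and kilobase at L3 and 18.13 to 24.80 at L1. In embryos this estimate was 33.1 to 42.3 and rough, because 54.1% to 58.4% of low values there fell within 0.1 of a whole fragment, against 78.4% to 87.1% at L3. Fragment numbers below are these estimates, and limits and intervals from them cover counting error only. xol-1 was listed at 0 in all 4 xol-1 samples and near 0 in wild type at L3 (at most 0.0248 FPKM), so its level there did not check the labels. In the double mutant it was at most 0.1197 FPKM at L3 and 0.230 at L1, and 0.864 to 1.44 FPKM in embryos. sex-1 ranged from 4.05 to 5.59 FPKM in wild type, from 3.79 to 5.71 in xol-1 and from 3.36 to 4.16 in the double mutant, and a gene total does not check an allele. Markers of early embryos and of L4 and adult animals were low at L3, with summed levels of 2.08 to 5.23 and 0.134 to 1.99 FPKM. In the embryo samples the embryo markers summed to 26.8 to 38.9 FPKM and the L4 and adult markers to 4109 to 6464 FPKM, so the adult markers were the higher of the lists in embryos.

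pcp-3 lies on chromosome IV at 9155148 to 9159019 of WBcel235, on the minus strand, with 6 exons and a transcript of 3363 bases. Its level in the wild-type L3 samples was 82.5, 89.5, 81.4 and 85.0 FPKM. In xol-1 it was 4.33, 3.93, 3.60 and 4.59 FPKM, and in the double mutant it was 3.39, 4.58, 4.02 and 4.43 FPKM. Every mutant sample lay far below every wild-type sample, and the mutants overlapped each other. The mean fell from 84.6 ± 3.59 FPKM (SD, n = 4) to 4.11 ± 0.436 in xol-1 and 4.10 ± 0.531 in the double mutant (n = 4 each), which is 4.87% and 4.85% of wild type. In log2(FPKM + 1) the differences from wild type were -4.07 in both mutants (SE 0.09). The gene was not absent, since 359 to 620 fragments per mutant library were estimated for it, and its rank went from above 88.8% to 89.6% of genes in wild type to above 48.5% to 52.3% in the mutants.

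T05F1.8 lies on chromosome I at 9642344 to 9643834, on the plus strand, with 4 exons and 2 annotated transcripts. Wild type held 20.8, 28.6, 23.5 and 28.9 FPKM, a mean of 25.4 ± 3.98 (SD, n = 4). In xol-1 the values were 0, 0.203, 0.402 and 0.177 FPKM, and in the double mutant they were 0.236, 0.721, 0.954 and 0.499 FPKM. No mutant sample reached 1 FPKM, and no wild-type sample was under 20 FPKM. The means of 0.195 ± 0.164 FPKM in xol-1 and 0.603 ± 0.307 in the double mutant (SD, n = 4 each) were 0.769% and 2.37% of wild type. On the log2(FPKM + 1) scale the differences from wild type were -4.46 and -4.05 (SE 0.16), and this scale understates the change of a gene that falls this low. Pooled over the 4 libraries, about 29 fragments in xol-1 and 82 in the double mutant stood against 3849 in wild type.

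F49F1.9 lies on chromosome IV at 4136817 to 4137572, on the minus strand, with 2 exons in 669 bases. Its wild-type values were 8.98, 8.85, 8.82 and 8.95 FPKM, close together. xol-1 held 0, 0.163, 0.0706 and 0.0697 FPKM, and the double mutant held 0.145, 0.0903, 0.226 and 0.146 FPKM. The fall was from 8.90 ± 0.0753 FPKM (SD, n = 4) to 0.0758 ± 0.0668 and 0.152 ± 0.0561 (n = 4 each), or to 0.852% and 1.71% of wild type, with log2 differences of -3.20 and -3.10 (SE 0.09). With a pseudocount of 0.1 in place of 1 these differences were -5.76 and -5.19, so the log2(FPKM + 1) scale understates this fall. In fragments, the 4 xol-1 libraries together held about 4 and the 4 double-mutant libraries about 8, against 490 in wild type. The pooled share of wild type was 0.774% in xol-1 (95% exact counting interval 0.210% to 1.99%) and 1.75% in the double mutant (0.752% to 3.48%). All 8 mutant values were under the level of 3 fragments in their own library, 0.166 to 0.273 FPKM. The wild-type values spread less than counting alone would give, with a coefficient of variation of 0.846% against 9.04% from about 100 to 140 fragments per library, so the small SD of this gene is no guide to its precision.

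F49F1.10 lies 835 bases from F49F1.9, at 4138408 to 4139122 of chromosome IV on the same strand, also with 2 exons. Wild type held 3.69, 4.89, 5.60 and 5.07 FPKM. xol-1 held 1.27, 2.50, 1.04 and 0.885 FPKM, and the double mutant held 1.61, 1.81, 2.15 and 0.845 FPKM. All mutant values lay below all wild-type values, but the gap was small: the highest xol-1 value was 2.50 FPKM and the lowest wild-type value 3.69 FPKM. The mutant means were 29.6% and 33.4% of wild type, from 4.81 ± 0.807 FPKM to 1.43 ± 0.736 and 1.61 ± 0.554 (SD, n = 4 each). The log2 differences were -1.29 and -1.17 (SE 0.21).

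F49F1.17 lies 972 bases from F49F1.9 on its other side, at 4135279 to 4135844, and is the shortest of the 5, with 511 bases in 2 exons. Its wild-type values were 2.57, 2.56, 0.821 and 2.15 FPKM. xol-1 held 0.260, 0.648, 0.225 and 0.1099 FPKM, all below wild type. The double mutant held 1.15, 0, 0.475 and 1.38 FPKM, and 2 of these 4 values lay above the lowest wild-type sample. The means were 2.03 ± 0.826 FPKM in wild type, 0.311 ± 0.234 in xol-1 samples and 0.752 ± 0.633 in double-mutant samples (SD, n = 4 each), which is 15.3% and 37.2% of wild type. Few fragments lay behind these values, about 69 over the wild-type libraries, 10 over xol-1 and 25 over the double mutant. The pooled shares of 13.9% and 38.1% accordingly had wide counting intervals, 6.37% to 27.1% and 23.1% to 61.0%.

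**Figure D1:**
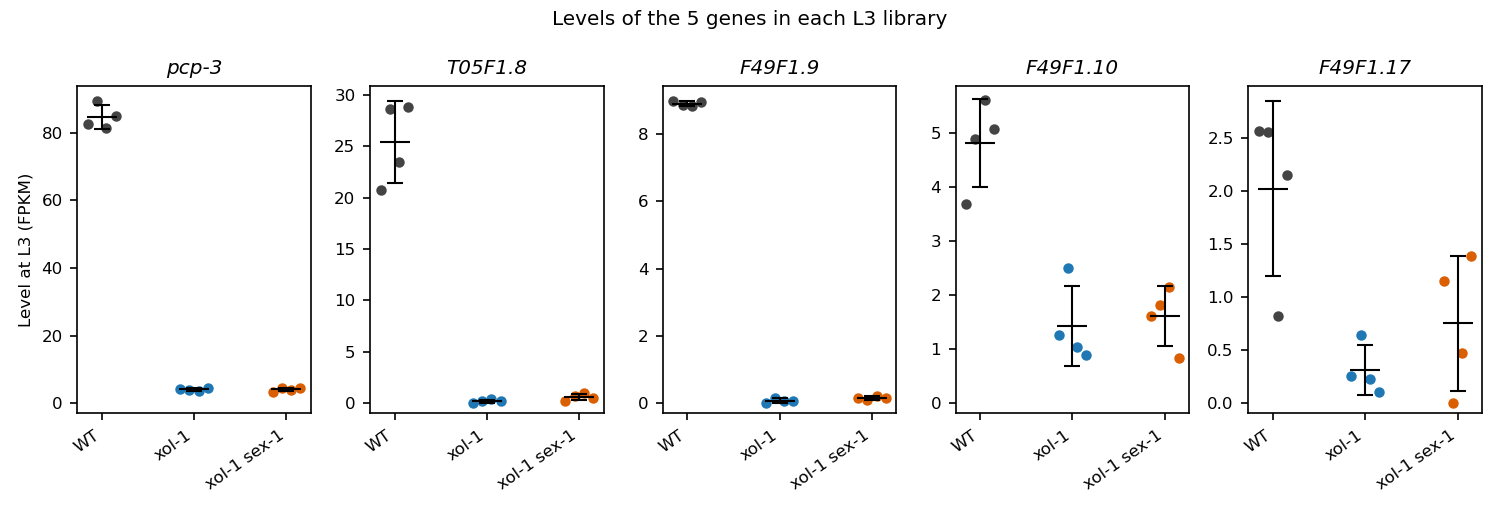
Level in FPKM (linear axis, a separate scale for each gene) of the 5 genes in each L3 sample of WT, xol-1 and xol-1 sex-1. Points are samples, long bars the mean and short caps 1 SD (n = 4). pcp-3, T05F1.8 and F49F1.9 sit near the bottom of their axes in all 8 mutant samples, F49F1.10 keeps 29.6% and 33.4% of the wild-type mean, and F49F1.17 overlaps wild type in xol-1 sex-1.

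All 5 genes passed the filter of a mean of at least 1 FPKM over the 12 L3 samples. T05F1.8, F49F1.9 and F49F1.17 did so through their wild-type levels alone, since neither mutant mean of any of these 3 reached 1 FPKM. In 4 of the 5, all 8 mutant values lay below all 4 wild-type values, and among the 13502 genes tested 9.41% had that arrangement. Below all wild-type values were 14.6% of the genes tested in xol-1 and 26.3% in the double mutant. These shares stand as background, and nothing is read from the members' count because the genes were chosen on these values.

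How far the loss stands from other genes was described by the higher of the 2 mutant means as a percentage of the wild-type mean, over the 10320 genes with at least 5 FPKM in wild type, a level set after the values were seen. Under 10% there were 5 genes: F49F1.9 at 1.71%, T05F1.8 at 2.37%, pcp-3 at 4.87%, and 2 genes listed at 0 in both mutants, his-49 (5.47 FPKM in wild type, a histone gene, uncertain where near-identical copies share reads) and T04A11.14 (7.90 FPKM). The next gene, F25D1.8, stood at 18.18%, and 32 genes in all were under 50%. F49F1.10, with 4.81 FPKM in wild type, fell just outside the level needed, and F49F1.17 further below it. Genes under that level were not ranked, so the count of 5 does not cover them. Among them was C40A11.7, with 2.98 FPKM in wild type and pooled shares of 2.61% in xol-1 and 1.71% in the double mutant.

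**Figure D2:**
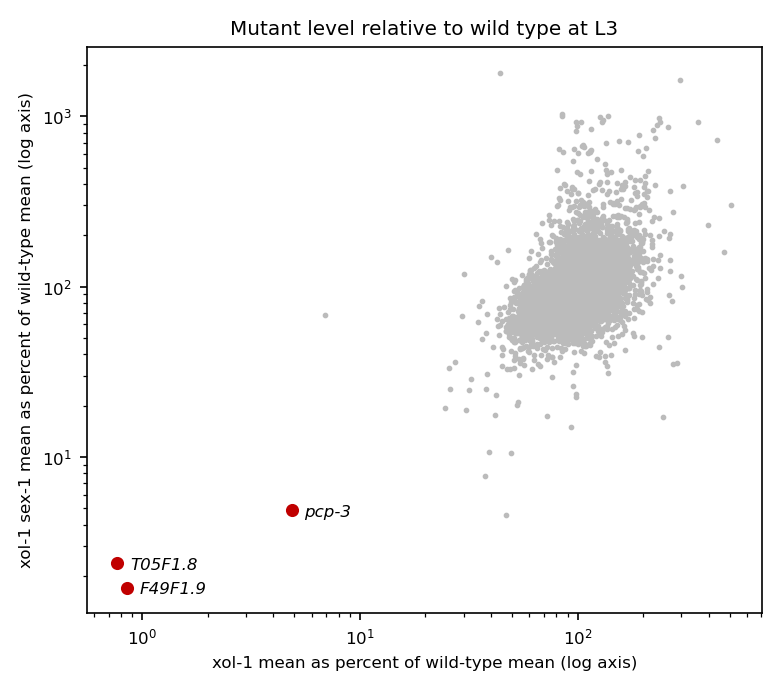
xol-1 mean (horizontal) and xol-1 sex-1 mean (vertical) at L3, each as a percent of the wild-type mean on log axes, for genes with at least 5 FPKM in wild type and a mutant mean above 0 in both mutants. Each grey point is a gene, and red marks pcp-3 (4.87% and 4.85%), T05F1.8 (0.769% and 2.37%) and F49F1.9 (0.852% and 1.71%), which lie at the lower left apart from the cloud. The red genes were chosen on these values, so nothing is read from their standing apart. his-49 and T04A11.14, listed at 0 in both mutants, and C40A11.7, under 5 FPKM in wild type, are not shown. Both axes share the wild-type samples.

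The mutants were then compared with each other, which asks whether sex-1(gk829) went with a further change in animals already carrying xol-1(ne4472). The samples are those on which the genes were chosen. pcp-3 was chosen as nearly lost in both mutants, which favours a small difference between them, so nothing is read from its p-value. Across all genes tested, 49.2% differed between the mutants at an adjusted p-value under 0.05 (limma, Benjamini-Hochberg, two-sided), 26.3% lower and 22.9% higher in the double mutant. The higher calls were 46.6% of all calls, and 63.3% with the columns rescaled to a common sum. pcp-3 and F49F1.10 had means above 1 FPKM in both mutants, and neither passed. For pcp-3 the difference was -0.0048 on the log2(FPKM + 1) scale (SE 0.09, limma adjusted p = 0.972), and for F49F1.10 it was 0.12 (SE 0.21, adjusted p = 0.661). A p-value above the threshold does not show that the mutants were alike in these genes. T05F1.8, F49F1.9 and F49F1.17 had mutant means under 1 FPKM and entered the fit through wild type alone, so no test between the mutants is read for them. For T05F1.8 the log2 difference was 0.41 (SE 0.16), given as a description. Its values in xol-1 and the double mutant overlapped, and the pooled share of wild type was 0.709% in xol-1 (95% exact counting interval 0.474% to 1.02%) and 2.33% in the double mutant (1.85% to 2.90%). These intervals leave out the spread between samples. For F49F1.9 and F49F1.17 the counting intervals given above overlapped between the mutants.

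The chromosome around each gene was examined over the 5 annotated genes on either side of the 3 loci, 30 genes in all, of which 15 passed the filter. Against wild type, 30.7% of all tested genes were called in xol-1 (14.7% lower, 16.0% higher) and 53.3% in the double mutant (28.1% lower, 25.2% higher). In xol-1 the higher calls were 52.0% of all calls, and 26.5% with the columns rescaled to a common sum, which shifted the median gene by -0.12. Of the 15 neighbours, 3 were higher and 1 lower in xol-1, and the double mutant had 7 higher and 3 lower. Nothing particular to the neighbours is read from 4 and 10 of 15 beside these background shares. The median log2 difference of the neighbours was -0.03 in xol-1 and 0.17 in the double mutant, beside -0.00063 and -0.03 over all genes tested.

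pcp-3 and pcp-2, the next gene on one side, went opposite ways. pcp-2, another gene of the family, lies 1568 bases beyond pcp-3 on the same strand, at 9160588 to 9165127 of chromosome IV. It was measured at 47.7 ± 2.95 FPKM in wild type, 62.3 ± 5.53 in xol-1 samples and 75.5 ± 2.38 in double-mutant samples (SD, n = 4 each), with no overlap between wild type and either mutant. pcp-2 rose by 0.37 in xol-1 (SE 0.07, limma adjusted p = 0.00118) and by 0.65 in the double mutant (SE 0.07, adjusted p = 8.5e-06) on the log2 scale. It also differed between the mutants, by 0.28 (adjusted p = 0.0051). In wild type pcp-3 was thus the higher of the pair per unit length, and in both mutants pcp-2 was.

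On the other side of pcp-3, F23B2.10, 784 bases away, was measured at 0.701 FPKM in wild type, 0.641 in xol-1 samples and 0.770 in double-mutant samples, with overlapping values. Around T05F1.8 the nearest genes were low in every genotype: T05F1.7, 607 bases away, had 0.436, 0.507 and 0.616 FPKM in wild type, xol-1 and the double mutant. T05F1.15, 581 bases away, had 0.827, 0.982 and 1.73 FPKM in the same order and was not called. T05F1.9, the next gene beyond, was 8.21 FPKM in wild type, 7.48 in xol-1 samples and 12.98 in double-mutant samples, and rose by 0.61 in the double mutant (SE 0.14, limma adjusted p = 0.00223). Among the neighbours of pcp-3 and T05F1.8, F23B2.7 was at 0.011 FPKM in wild type and F23B2.8, F23B2.9, C07C7.3, C46C2.4, C46C2.5 and T05F1.5 were listed at 0, so no loss could be detected in these 7.

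At the F49F1 locus the low level reached further than the 3 genes. The pseudogene F49F1.8, 647 bases from F49F1.17, had 1.13 ± 0.0932 FPKM in wild type, 0.222 ± 0.0158 in xol-1 samples and 0.339 ± 0.0774 in double-mutant samples (SD, n = 4 each). F49F1.18, 539 bases from F49F1.10, had 1.09 ± 0.495, 0.257 ± 0.158 and 0.204 ± 0.111 FPKM (n = 4 each). In both genes every mutant value lay below every wild-type value. The share of 9.41% for that arrangement covers the 13502 genes tested, and these genes, under the filter, are not among them. No such share is given for genes at their level. For F49F1.18 the gap was narrow, with 0.475 FPKM in wild-type replicate 2 and 0.445 FPKM in xol-1 replicate 1. These stand for about 5.9 and 6.9 fragments, so counting error covers that gap. Both were under the filter, and a limma fit over all 21975 genes was run without it. It gave log2 differences, in xol-1 and the double mutant, of -0.80 and -0.67 for F49F1.8 (adjusted p = 1.2e-05 and 6.8e-06). For F49F1.18 they were -0.71 and -0.77 (adjusted p = 0.0166 and 0.00544). That fit called 1858 genes lower in xol-1 and 3726 in the double mutant. Without the filter the SE went from 0.09 to 0.05 for F49F1.9 and from 0.21 to 0.22 for F49F1.10. The p-values with and without the filter therefore do not compare. The 5 adjacent genes from F49F1.8 to F49F1.18 span 9.863 kb, at 4130503 to 4140365 of chromosome IV, all on the minus strand. The estimated fragments behind F49F1.18 were few, about 52 over wild type, 14 over xol-1 and 9 over the double mutant.

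Outside that stretch the levels did not follow the same order. F49F1.7, 4745 bases before F49F1.8, was lower in xol-1 (4.06 to 2.10 FPKM, log2 difference -0.74, SE 0.19, limma adjusted p = 0.0106) but was 4.55 FPKM in the double mutant (adjusted p = 0.55). mul-1 was 2.18 FPKM in wild type, 3.63 in xol-1 samples and 8.80 in double-mutant samples, a rise of 1.65 in the latter (SE 0.21, adjusted p = 4.3e-05). F49F1.5 was 236, 209 and 112 FPKM in the same order, and fell by 1.09 in the double mutant (SE 0.17, adjusted p = 0.000179). drd-50, beyond F49F1.5, was 0.357, 0.306 and 3.42 FPKM in that order. It entered the fit through the double mutant alone, so its call, counted among the neighbours above, is not read further. F49F1.11, 270 bases past F49F1.18, and the genes F49F1.12 and F49F1.13 after it were near 0 in all 3 genotypes, so no loss could be detected there. How fragments were divided among genes of like sequence is not given in the sources used here, and none of the 5 genes overlaps another gene of the table.

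**Figure D3:**
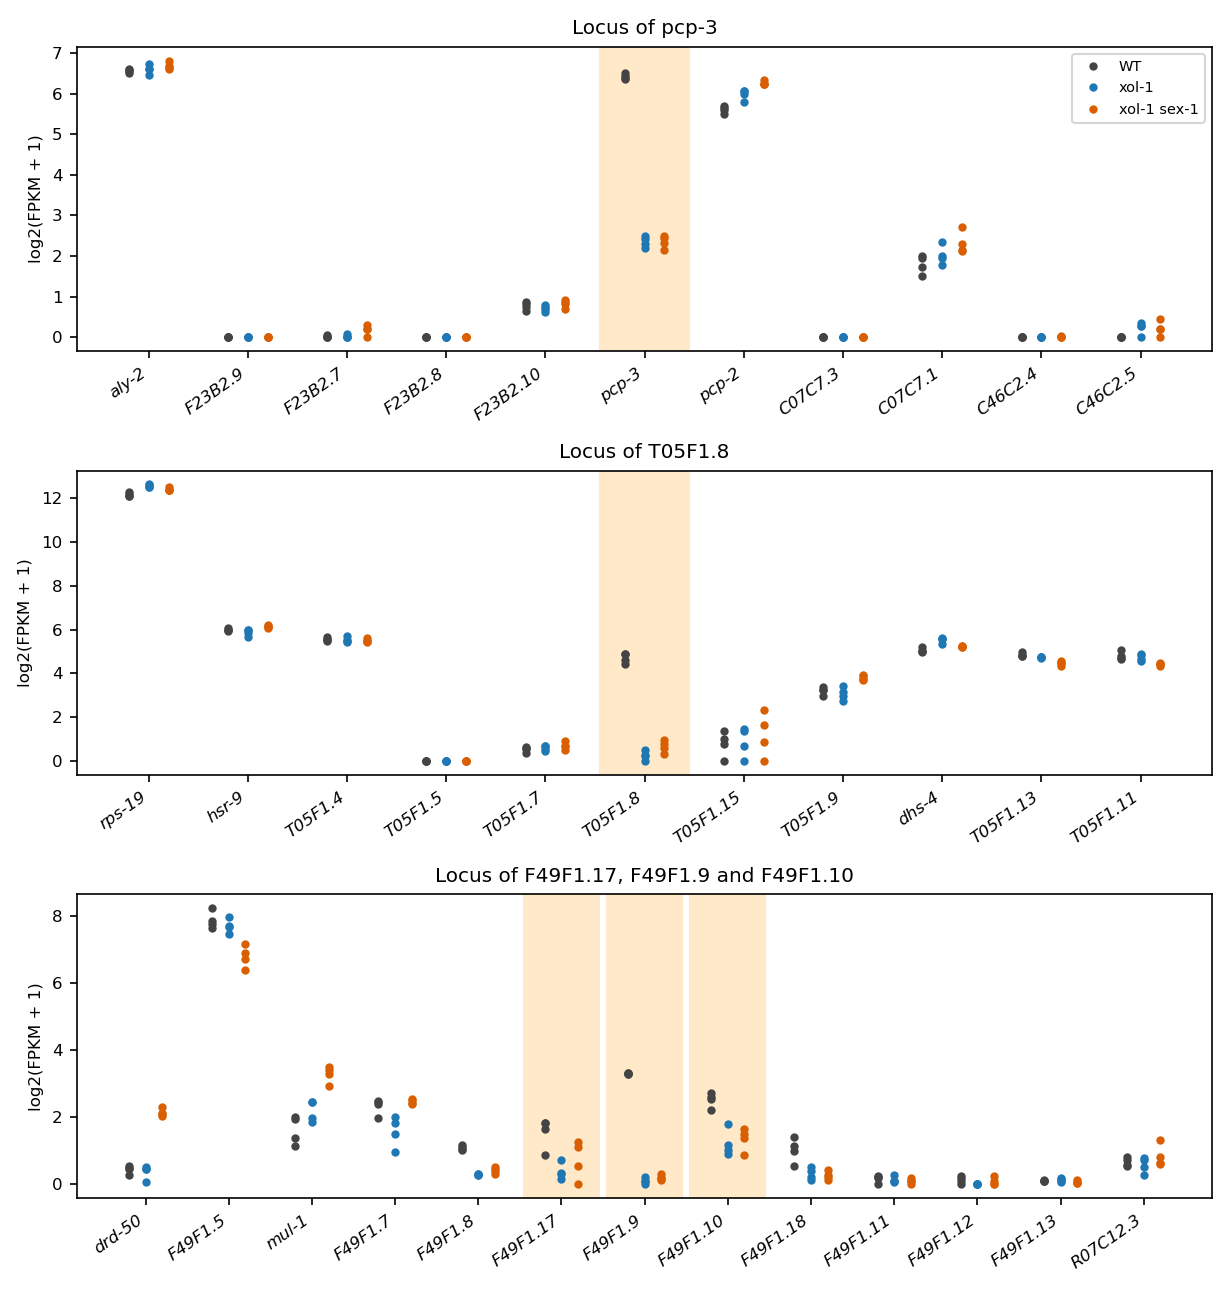
Levels in log2(FPKM + 1) of the 5 genes (shaded) and their neighbours in chromosomal order (horizontal axis, not to scale) at the 3 loci, in the 4 samples each of WT, xol-1 and xol-1 sex-1 at L3. At the first 2 loci the shaded gene falls furthest. pcp-2 beside pcp-3 is higher in the mutants, and T05F1.13 and T05F1.11 are lower in xol-1 sex-1. At the F49F1 locus, F49F1.8 and F49F1.18 on either side of the shaded genes also lie lower in both mutants.

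None of the other 4 genes named for the prolyl carboxypeptidase family fell as far as pcp-3 at L3. pcp-1 through pcp-5 summed to 374 ± 11.2 FPKM in wild type, 333 ± 16.8 in xol-1 samples and 329 ± 10.2 in double-mutant samples (SD, n = 4 each), and pcp-3 made up 22.6%, 1.24% and 1.25% of that sum. pcp-1 rose from 109 ± 4.36 FPKM to 150 ± 19.7 and 158 ± 10.5, by 0.45 and 0.53 in log2 (SE 0.09, limma adjusted p = 0.0015 and 0.00022). pcp-5 fell from 77.4 ± 8.94 FPKM to 57.3 ± 3.23 and 44.2 ± 7.33, by 0.42 and 0.80 (SE 0.11, adjusted p = 0.014 and 9.2e-05). Of 12 further genes of prolyl peptidases, made up of the other 4 pcp genes, dpf-1 through dpf-7 and the aminopeptidase gene app-1, 11 were tested. In xol-1 5 were higher and 1 lower, and in the double mutant 4 were higher and 2 lower, with median log2 differences of 0.19 and 0.05. Of the lower calls in the double mutant, dpf-6 lay at the threshold (limma adjusted p = 0.049998). Only 1 lower call was left with a pseudocount of 0.1 or 0.5 or with the replicate block. Over all genes tested, 16.0% were higher and 14.7% lower in xol-1, and 25.2% and 28.1% in the double mutant. The double mutant set against xol-1 gave 3 higher and 6 lower, with a median of -0.18 beside -0.02 over all genes tested, of which 22.9% were higher and 26.3% lower. With the columns rescaled to a common sum, the counts became 2 higher and 1 lower in xol-1 and 3 higher and 2 lower between the mutants, and the medians became 0.06 and -0.08.

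Other genes with the same pattern over the 12 L3 samples were listed by Pearson's r of log2(FPKM + 1), 3 for each gene, as a description of samples that share 3 genotype means. C40A11.7 was first for pcp-3 (r = 0.993) and T05F1.8 (r = 0.985) and second for F49F1.9 (r = 0.991). Its level also fell nearly to 0, with 2.98 ± 0.384 FPKM in wild type, 0.0763 ± 0.079 in xol-1 samples and 0.0514 ± 0.0688 in double-mutant samples (SD, n = 4 each), with about 253, 7 and 4 fragments. mek-2, a MAP kinase kinase, ranked first for F49F1.9 (r = 0.992) and second for pcp-3 (r = 0.992), although it kept most of its level (119, 75.3 and 73.8 FPKM). ZK829.3 was among the 3 nearest to each of these genes, and C17F4.8 followed it for T05F1.8 (4.34, 0.443 and 0.704 FPKM). F49F1.10 was nearest to F57F5.3 (r = 0.966), lin-12 (r = 0.962) and ZK353.2 (r = 0.961), and F49F1.17 to ncs-7 (r = 0.911), rocf-1 (r = 0.909) and C26D10.3 (r = 0.908). Among themselves, pcp-3, T05F1.8 and F49F1.9 had r between 0.991 and 0.997 over the 12 samples. A high r among these 3 follows from their choice on the same samples, and nothing is read from it. F49F1.10 and F49F1.17 had r = 0.630 with each other. C40A11.7, C17F4.8 and rocf-1 passed the filter through their wild-type levels alone.

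At L1 and in early embryos, the double mutant was the genotype analysed here, and 13 further columns of those tables for wild type and xol-1 match no sample of this series and were not used. The levels below therefore have no control beside them, and whether the loss seen at L3 is present at these stages cannot be told from them. The stages come from separate tables, so no test was run between stages.

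pcp-3 was low at both stages in the double mutant, at 1.15, 1.36, 1.04 and 0.778 FPKM at L1 and 0.949, 0.830 and 0.657 FPKM in embryos. All of these values lay under its L3 range of 3.39 to 4.58 FPKM in the same genotype. pcp-2, beside it, was 54.5 to 58.8 FPKM at L1 and 5.01 to 8.67 FPKM in embryos. pcp-3 made up 0.551% ± 0.128 of the summed level of the 5 pcp genes at L1 (SD, n = 4) and 1.104% ± 0.118 in embryos (n = 3), beside 1.25% at L3.

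T05F1.8 was 0, 1.29, 0.781 and 1.36 FPKM at L1, where it was listed at 0 in 1 sample and at 18 to 35.6 estimated fragments in the other 3. In embryos it was 1.77, 1.52 and 1.21 FPKM, above its L3 range of 0.236 to 0.954 FPKM in the double mutant. F49F1.9 was listed at 0 in all 4 L1 samples, where 3 fragments would be 0.282 to 0.405 FPKM, and at 0, 0.0894 and 0 FPKM in embryos. F49F1.10 was at 0, 0.304, 0 and 0 FPKM at L1 and 0.121, 0 and 0.153 FPKM in embryos, in each case at or near the level of 3 fragments or below and under its L3 range of 0.845 to 2.15 FPKM. F49F1.17 was 1.12, 0.923, 0.559 and 0 FPKM at L1 and 0.672, 0.196 and 0.4995 FPKM in embryos, within its L3 range. Adult markers were high in the embryo samples, as given above, and their part in the embryo levels was not tested.

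Of the 2 genes that flank the F49F1 members, F49F1.18 reached 1.03 ± 0.366 FPKM in embryos of the double mutant (SD, n = 3) while it was at 0 in 3 of 4 L1 samples, and in the same samples C40A11.7 reached 1.15 ± 0.361 FPKM in embryos and 0 in 3 of 4 L1 samples. F49F1.8 was 0.284 ± 0.0537 FPKM in embryos and 0.155 ± 0.137 at L1 (n = 4).

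**Figure D4:**
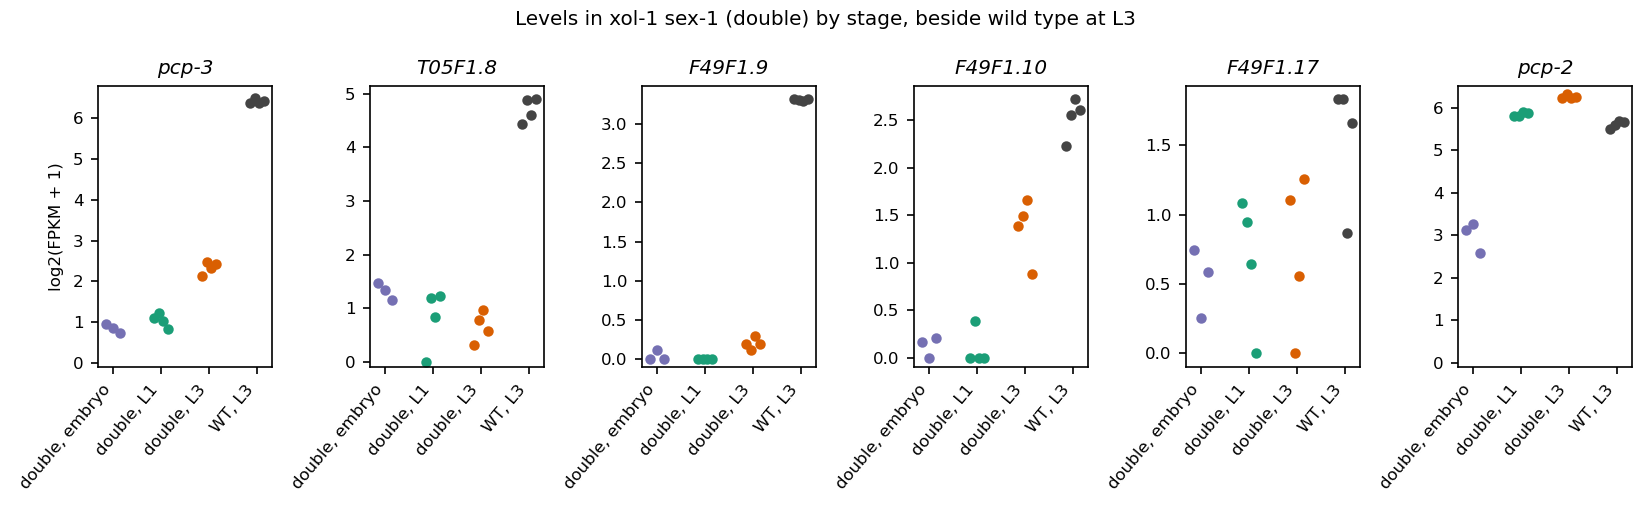
Levels in log2(FPKM + 1) in xol-1 sex-1 (double) samples of early embryos (n = 3), L1 (n = 4) and L3 (n = 4), beside wild type at L3 (n = 4), for the 5 genes and pcp-2, each with its own scale. Points are samples, and no wild-type samples are shown for embryos or L1. pcp-3 is lowest in embryos and L1, F49F1.9 lies at or near 0 at all 3 stages, and pcp-2 is high at both larval stages.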

How the data were processed

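Poly(A) RNA of 19 whole-animal samples in 5 groups was analysed. The authors deposited 3 tables of FPKM values, 1 per stage. Per the submitters' processing notes the tools were cutadapt 2.3, FastQC 0.11.8, Salmon 1.9.0 and DESeq2 1.42.0 with genome build WBcel235. Their order, the step that gave FPKM and any scaling between samples are not given in the sources used here. Samples were grouped by the labels, and 13 columns that match no sample were not used. Positions came from Ensembl release 115 of WBcel235, to which all 21975 identifiers matched.

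L3 values were tested with limma 3.58.1 in R 4.3.3 (robust eBayes with a trend) after log2 transformation with a pseudocount of 1. The 13502 genes whose mean over 12 samples reached 1 FPKM entered the fit, with Benjamini-Hochberg adjustment and a threshold of 0.05. The fit was tested on simulated data. The labels do not say that replicates came from separate cultures, so p-values measure the spread between these samples. Fragments were estimated, by a procedure chosen after the values were seen, as FPKM times transcript length, less 150 to 290 bases, divided by the step between the lowest values, with a floor of 3 fragments. Python 3.11.15 was used for other steps.

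The members, lists and tests were chosen with earlier results of these data known. Named genes are the 5 members, 5 genes on each side of each locus, listed family genes past the threshold (at most 3 each way per list), the 3 genes most like each member, xol-1 and sex-1. Genes ranked by loss were named after their values were seen. Alternatives changed the pseudocount, filter, scaling, samples fitted, variance model and replicates. No sequences are shown.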

Additional observations from a re-analysis of the deposited data

Results flagged for a closer look

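Of 67 groups of 4 samples examined for the genes named, 6 held a sample far from the others, where chance gives about 1 in 20. In each, the gap to the nearest sample took up nearly all of the group's range. F49F1.10 in xol-1 sex-1 at L1 was 0.304 FPKM in replicate 2 and 0 in the others. F49F1.18 in the same group was 0.111 FPKM in replicate 2 and 0 in the others. C40A11.7 there was 0.125 FPKM in replicate 2 and 0 in the others. These 3 values stand for about 1 to 3 fragments. A group at 0 in all samples but 1 is flagged whatever the value, so the rate of 1 in 20 does not apply to these. F49F1.8 at L1 was 0.358 FPKM in replicate 3, against 0.0692 to 0.118 in the others. pcp-5 in xol-1 sex-1 at L3 was 33.3 FPKM in replicate 2, against 47.6 to 48.2. mek-2 in wild type was 120.7 FPKM in replicate 4, against 118.2 to 118.4.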

How the results depend on the processing

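None of the results recomputed reversed a called direction, and no total of called genes or neighbours over both directions moved by more than 1.5 times. Within a direction, rescaling the columns to a common sum moved the higher calls of xol-1 against wild type from 2160 to 1312 and the lower calls from 1991 to 3645. Leaving out 1 L3 sample at a time gave 3263 to 4570 genes called for xol-1 against wild type, 6421 to 7385 for the double mutant (xol-1 sex-1) set against it and 5734 to 6668 between the mutants. The neighbours called were 4 to 5, 8 to 11 and 9 to 11. A pseudocount of 0.1 gave larger log2 differences from wild type, in xol-1 and the double mutant, of -6.63 and -5.29 for T05F1.8, -5.76 and -5.19 for F49F1.9 and -2.41 and -1.78 for F49F1.17, since a pseudocount of 1 compresses low values. Rescaling the columns to a common sum shifted the median gene by -0.12 for xol-1 against wild type, and the share of calls that were higher went from 52.0% to 26.5% there and from 46.6% to 63.3% between the mutants. pcp-5 then lost its call between the mutants (adjusted p = 0.105). mul-1 gained a call in xol-1 on leaving out wild-type replicate 1 or 3 or xol-1 replicate 2 (adjusted p 0.0383 to 0.0414). Replicate numbers did not pair the samples: correlations of same-numbered samples averaged 0.10, -0.03 and 0.02. With the replicate number as a block, 4004, 7081 and 6538 genes were called, against 4151, 7193 and 6639. Levels under about 3 fragments, as for F49F1.9 in the mutants, cannot be ordered.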

Other observations

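A list of 12 galectin genes, which encode sugar-binding proteins, was examined beside the peptidases, all 12 passing the filter. In xol-1 against wild type 3 were higher and 1 lower, and in xol-1 sex-1 3 were higher and 3 lower, with median log2 differences of 0.08 and -0.01. Over all genes tested, 30.7% and 53.3% were called in these comparisons, and 4 and 6 of 12 lie near those shares. The double mutant set against xol-1 gave 2 higher and 3 lower. With the columns rescaled to a common sum, xol-1 had 1 higher and 1 lower, and its median turned to -0.05. lec-10 rose in both mutants, by 0.45 (limma adjusted p = 0.00181) and 0.48 (adjusted p = 0.00063), and lec-1 fell by 0.39 (adjusted p = 0.0147) and 0.46 (adjusted p = 0.00326). Both comparisons share the wild-type samples.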
